A study of Mus musculus with 3 samples.

Results

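The 36 proteasome subunit genes described here are the genes whose symbols match Psma, Psmb, Psmc or Psmd followed by a number, without the immunoproteasome genes Psmb8, Psmb9 and Psmb10, and they are 36 of the 31053 genes in the count matrices. They were taken by symbol and not by a threshold on any measured value, but with earlier results of these data known. Single-cell RNA was read from 3 fresh rhabdoid tumours of the R26-SHH group, each from a different mouse of the genotype Rosa26-CreERT2::Smarcb1flox/flox, on a mixed 129/SV and C57BL/6 background. Tamoxifen, given in early gestation, deletes Smarcb1 there, and since the Rosa26 promoter drives the Cre in all kinds of cells, the deletion was not limited to 1 lineage. Smarcb1 encodes a core subunit of the chromatin remodeller SWI/SNF, and rhabdoid tumours arise when it is lost. The tumours were dissociated with enzymes, were not sorted, and were counted from the 3' end of transcripts on the 10x droplet platform. All 3 carry the same label, and no age or untreated animal enters the comparisons, which were therefore made between cell classes inside each tumour, with the tumour as a block.

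The proteasome is the protease that degrades proteins marked with ubiquitin. Its core is a barrel of alpha rings, which gate the entrance, around beta rings, of which Psmb5, Psmb6 and Psmb7 carry the catalytic sites, and its regulatory particle holds a ring of ATPases (Psmc genes) that unfold substrates together with non-ATPase subunits (most Psmd genes) that bind and remove ubiquitin. Psmd5, Psmd9 and Psmd10 are chaperones of the base rather than subunits of the finished particle. In dividing cells the complex degrades cyclins and securin, which lets mitosis proceed, and when subunits run short the transcription factor Nfe2l1 is known to raise the genes of the complex together.

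Cells of at least 3000 UMIs (unique molecular identifiers, each 1 captured transcript) were assigned to classes by marker genes, and levels are given as UPM, the UMIs of a gene per 1000000 UMIs of a class in a tumour. The tumours held 12467, 9485 and 6428 barcodes with 79529921, 40151353 and 67645602 UMIs, of which 5920, 3254 and 2745 cells were kept. The 4 non-cycling tumour states were progenitor-like (1305 cells), neuronal-like (487), stem-like (1623) and mesenchymal-like (503), beside 3398 tumour cells of no state and 986 of several states, which entered neither the control states nor the fit, and 562 S phase-like and 966 G2/M-like tumour cells, 1034 immune-like and 175 endothelial-like cells. Smarcb1, which was kept out of the gates, lay between 0 and 3.43 UPM in the 24 sums of tumour classes, between 19.8 and 31.1 in immune-like cells and between 39.6 and 49.8 in endothelial-like cells, with the reservation that the gate thresholds were set with Smarcb1 UMIs in view, so that this is no independent check. Between 22 and 42 barcodes were shared by any pair of tumours. The median depth was 6288 to 19638 UMIs in the non-cycling states, 11554 to 31397 in cycling cells, 7510 to 18221.5 in immune-like cells and 5953 to 12755.5 in endothelial-like cells.

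Of the 36 members, 34 were read in every class and made up nearly all of the summed level. In progenitor-like cells their mean levels ran from 33.7 UPM for Psmd10 to 364.6 for Psma7, with a median of 139.1. In immune-like cells they ran from 19.3 for Psmd5 to 208.0. UMIs from the 3' end were not divided by transcript length, so these levels are compared between classes and not between genes.

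The remaining members, Psma8 and Psmb11, are known from other tissues, since Psma8 is the alpha subunit of the testis and Psmb11 the beta subunit of the thymic cortex. Psma8 had 0, 4 and 0 UMIs in the 4 non-cycling states together in tumours 1, 2 and 3, against 8, 5 and 10 UMIs in endothelial-like cells, where its level was 9.89, 15.9 and 9.05 UPM. Against a floor of 3 UMIs in the states of the same tumour it was at least 72.8-fold higher in endothelial-like cells of tumour 1 and at least 47.3-fold higher in tumour 3, and against the 4 UMIs of tumour 2 it was 35.2-fold higher there. In immune-like cells it had 11, 4 and 4 UMIs, which is 2.27, 1.15 and 2.04 UPM. Psma8 was thus read in both non-tumour classes of all 3 tumours, on few UMIs. It passed the filter on low counts through the non-tumour sums, where it is high, and its calls against the tumour states are therefore no support. Psmb11 had 15, 5 and 4 UMIs in the 4 states, 1, 0 and 0 in endothelial-like cells and 0, 2 and 0 in immune-like cells, too few to compare.

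The mean summed level of the 36 members over the tumours was highest in cycling tumour cells and lowest in immune-like cells, but in tumour 3 neuronal-like and endothelial-like cells were above both cycling classes. Progenitor-like cells held 5257, 4902 and 4918 UPM in tumours 1, 2 and 3 (5026 ± 200.2, SD, n = 3), neuronal-like cells 5451, 4681 and 5521 (5218 ± 466.5), stem-like cells 4817, 4541 and 4201 (4520 ± 308.7) and mesenchymal-like cells 4809, 4442 and 4290 (4514 ± 266.6). S phase-like cells held 5867, 5427 and 5003 (5432 ± 432.1) and G2/M-like cells 6233, 5685 and 5161 (5693 ± 535.7). Immune-like cells held 3194, 2935 and 3386 (3172 ± 226.1) and endothelial-like cells 4404, 4191 and 5164 (4587 ± 511.7). In order of their means the classes were G2/M-like, S phase-like, neuronal-like, progenitor-like, endothelial-like, stem-like, mesenchymal-like and immune-like. Neighbours in this order overlapped between tumours, except the last pair, since the highest immune-like value lay below the lowest mesenchymal-like value. Within each tumour, however, G2/M-like cells were above S phase-like cells.

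Set against the mean of the 4 states of its own tumour, the G2/M-like sum was 1.226, 1.225 and 1.091 times as high (1.18 ± 0.0779, SD, n = 3) and the S phase-like sum 1.154, 1.169 and 1.057 times (1.127 ± 0.0609). The G2/M-like sum was also above the progenitor-like sum of each tumour. The immune-like ratio was 0.628, 0.632 and 0.715 (0.659 ± 0.0491). The endothelial-like ratio was 0.866, 0.903 and 1.091 (0.954 ± 0.121), below 1 in tumours 1 and 2 and above it in tumour 3. These are descriptions with no test, because a sum over chosen members was given none. When mitochondrial and ribosomal protein genes were left out of the total, the order of neuronal-like and progenitor-like cells turned, to 6510 against 6809 UPM, and endothelial-like cells at 5689 fell below stem-like at 6025 and mesenchymal-like at 5977. The means of G2/M-like and S phase-like cells then lay close together, at 7356 and 7326 UPM.

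**Figure D1:**
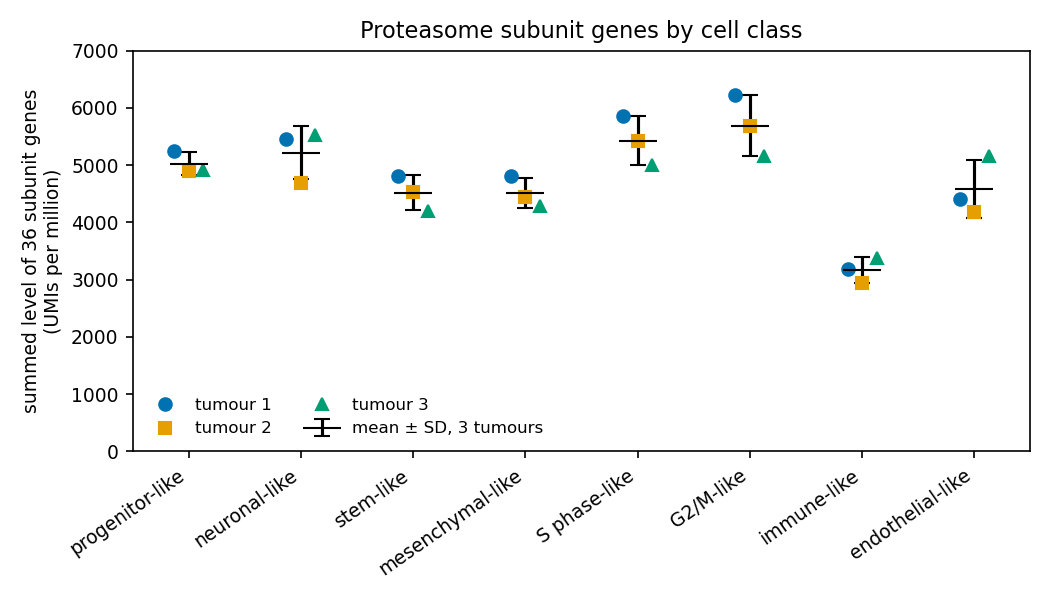
Summed level of the 36 proteasome subunit genes (UPM, axis y) by cell class (axis x), with 1 point for each of the 3 tumours and the mean. G2/M-like cells lie at 5161 to 6233 and immune-like cells at 2935 to 3386, below every tumour class.

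Within the states the tumours differed from each other in some members. Over the mean of the 4 states, Psmc1, an ATPase, held 118.7, 130.5 and 78.4 UPM in tumours 1, 2 and 3, the ATPase Psmc3 held 159.8, 154.1 and 117.3, and the alpha subunit Psma7 428, 385.8 and 308. Tumour 3 was the lowest in all of these. The catalytic Psmb7 ran the other way, at 118.3, 100.5 and 140.3, while Psmb2 at 160.5, 150.7 and 159.7 and Psmb5 at 177.5, 165.8 and 180.7 were more alike. These genes were picked after their values were seen. The tumour term of the fit takes up such differences, so that they do not enter the comparisons of classes.

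The study separates tumour cells in the G2 to M transition. That comparison called more members than the other 6 on TMM factors with all tumours and no maximum depth. With cells over 15000 UMIs left out it called 12 higher and 0 lower, beside 12 higher and 1 lower in immune-like cells. Of 36 members, 26 (72.2%) were higher in G2/M-like cells than in the 4 non-cycling states and 0 were lower (edgeR quasi-likelihood test, Benjamini-Hochberg adjusted p under 0.05 over all 15489 genes tested), where 16.2% of all genes tested were called higher and 9.15% lower. The called members rose by 0.29 to 0.64 on the log2 scale, which is 1.23- to 1.56-fold, and each of the 26 was higher in all 3 tumours. The median difference over the members was 0.37 (log2), beside 0.00286 over all genes. Without the threshold, 29 of the members had an unadjusted p under 0.05, and DESeq2 called 23 higher and 0 lower.

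All 6 ATPase genes rose. Psmc4 held 74.4, 69.4 and 77.5 UPM in the states of tumours 1, 2 and 3 and 108.9, 101 and 108.9 in G2/M-like cells. The groups did not overlap, and the difference was 0.64 ± 0.12 (log2, SE; edgeR adjusted p = 0.000266). Psmc3 held 159.8, 154.1 and 117.3 in the states and 229.4, 214.2 and 152.7 in G2/M-like cells, a rise of 0.57 ± 0.099 (edgeR adjusted p = 0.000109). Psmc3 was higher in each tumour, although its G2/M level in tumour 3 lay below its levels in the states of tumours 1 and 2. Psmc1 showed the same overlap and rose from 118.7, 130.5 and 78.4 to 169.7, 177.4 and 95.6, by 0.54 ± 0.12 (edgeR adjusted p = 0.0017). Psmc2, Psmc5 and Psmc6 rose by 0.34, 0.34 and 0.40 on the log2 scale.

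Of the 11 non-ATPase subunits of the base and lid, 10 rose. Psmd13, a lid subunit, held 84.9, 92 and 72.6 UPM in the states and 123.8, 118 and 102.3 in G2/M-like cells, with no overlap and a rise of 0.58 ± 0.10 (log2, SE; edgeR adjusted p = 0.000117). Psmd1, a scaffold of the base, rose by 0.49 ± 0.10 (edgeR adjusted p = 0.000854). Its exons overlap those of the predicted gene Gm21972 on the same strand, so its UMIs may have been split or lost. Psmd14, the lid protease that removes ubiquitin chains, held 98.9, 96.4 and 82.8 in the states and 135.6, 111.4 and 100.5 in G2/M-like cells, a rise of 0.43 ± 0.095 (edgeR adjusted p = 0.00149). The ubiquitin receptor Psmd4 was the subunit of this group that did not pass, at 178, 193.7 and 148 against 196.2, 231.1 and 149.3 and a difference of 0.25 ± 0.11 (edgeR adjusted p = 0.0974).

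Of the base chaperones, Psmd5 rose by 0.52 ± 0.10 (log2, SE; edgeR adjusted p = 0.000477), from 50.2, 50.6 and 42.7 UPM to 63.8, 69.4 and 55.8. Psmd9 and Psmd10 did not pass, with differences of 0.17 and −0.03 (log2).

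In the core particle 5 of 8 alpha genes and 4 of 8 beta genes rose. Of the catalytic subunits, Psmb7, which carries the trypsin-like site, held 118.3, 100.5 and 140.3 UPM in the states and 159.6, 150.5 and 150.4 in G2/M-like cells, a rise of 0.50 ± 0.10 (log2, SE; edgeR adjusted p = 0.00077). Psmb6, the caspase-like subunit, rose from 201.5, 172.9 and 202.6 to 278.1, 221.2 and 232.3, by 0.46 ± 0.10 (edgeR adjusted p = 0.00172). Neither overlapped between the groups. Psmb5, the chymotrypsin-like subunit that proteasome inhibitors bind, held 177.5, 165.8 and 180.7 in the states and 189.5, 180.4 and 196.7 in G2/M-like cells, and its difference of 0.22 ± 0.094 did not pass (edgeR adjusted p = 0.0893). The other core members that did not pass were Psma1 at 0.27, Psma7 at 0.18, Psmb1 at 0.14 and Psmb4 at 0.19 (log2), besides the rarely read Psma8 and Psmb11.

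The ratio of summed core UMIs to summed regulatory UMIs in G2/M-like cells was 1.372, 1.276 and 1.325 (1.324 ± 0.0479, SD, n = 3). In S phase-like cells it was 1.457, 1.357 and 1.424, and in progenitor-like cells 1.480, 1.308 and 1.493. The ratio was thus lower in G2/M-like than in S phase-like and in progenitor-like cells of each tumour, with no test made of it.

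The G2/M count was smaller with deep cells left out and without tumour 1. G2/M-like cells had median depths of 16395, 12716 and 31397 UMIs, above those of the states, and with cells over 15000 UMIs left out, a setting chosen after this was seen, 12 members were called higher (median difference 0.268, 33 of 36 positive) where 9.72% of the genes tested were. That setting also leaves fewer cells, so that depth and cell number cannot be told apart. Without tumour 1 a single member of 36, Psmc4, was called, below the 7.25% of all genes called higher there, with a median difference of 0.277 and 34 of 36 positive. Without tumour 2 the count was 9 of 35, where 10.4% of all genes were called higher. The called members rose by a median of 0.5, 0.422 and 0.327 on the log2 scale in tumours 1, 2 and 3. Stress genes induced by dissociation summed to 3495 to 4950 UPM in G2/M-like cells and 1538 to 8307 in the states, and the part of depth and stress in the result was not tested.

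**Figure D2:**
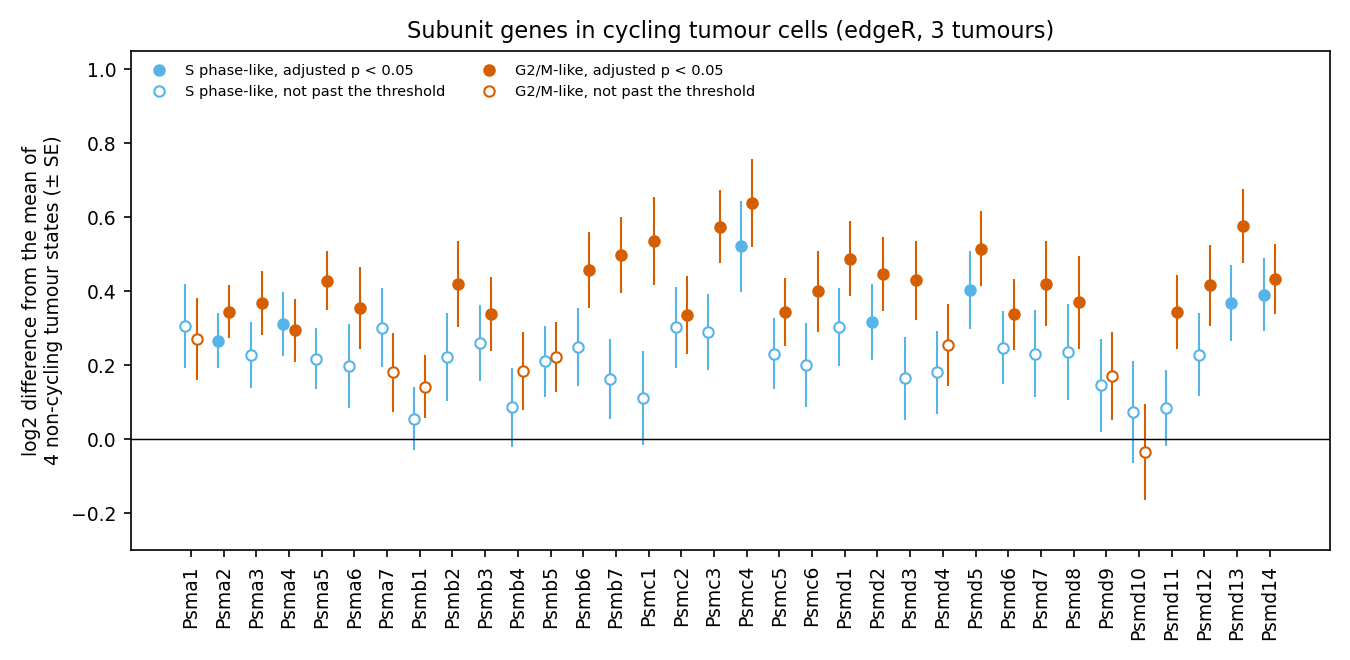
Difference (log2, axis y) of each proteasome subunit gene (axis x, without Psma8 and Psmb11) in S phase-like and G2/M-like cells against the 4 non-cycling tumour states, with bars for the standard error of the edgeR fit and filled points for called members. In G2/M the 26 called members lie between 0.29 and 0.64, and all 6 ATPase genes are among them.

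The S phase-like cells showed the same direction at a smaller size. There 7 members were higher and 0 lower, where 10.3% of all genes were called higher and 4.24% lower (7 of 36 is above that share). They were 2 alpha genes, 1 ATPase, 3 non-ATPase subunits and 1 base chaperone. No beta gene was called. The median difference over the members was 0.231 (log2), 35 of 36 were positive, 19 had an unadjusted p under 0.05, and DESeq2 called 9 higher and 0 lower.

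Psmc4 again led, with 105, 97.2 and 102.5 UPM in S phase-like cells of tumours 1, 2 and 3 against 74.4, 69.4 and 77.5 in the states, a rise of 0.52 ± 0.12 (log2, SE; edgeR adjusted p = 0.00481). Psmd14 held 125.9, 121.2 and 103.3 and rose by 0.39 ± 0.098 (edgeR adjusted p = 0.00791). Psmd5 rose by 0.40 ± 0.11 (edgeR adjusted p = 0.0109). Psmd13, Psmd2, a scaffold of the base, and the alpha subunit Psma4 rose by 0.37, 0.32 and 0.31. All of these were higher than the states in each tumour, and for Psmc4 and Psmd14 the groups did not overlap. The catalytic subunits did not pass, with differences of 0.21 for Psmb5 (edgeR adjusted p = 0.158), 0.25 for Psmb6 (edgeR adjusted p = 0.124) and 0.16 for Psmb7 (edgeR adjusted p = 0.362), nor did Psmd4 at 0.18 (edgeR adjusted p = 0.33). The count of 7 fell to 0 without tumour 1, where 4.03% of all genes were called higher, to 1 without tumour 2, where 6.37% were, and to 3 with cells over 15000 UMIs left out, where 6.86% were. The members called were thus near or below the background share in these settings. S phase and G2/M share their control states, and the difference between them was not tested.

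The promoters of 5 members are shown. Of the members named in G2/M, those with a window and at least 1 searched motif were taken, so that their motifs follow from the choice. These are the catalytic Psmb5 and Psmb6, of which only the latter passed in G2/M, and the ATPases Psmc4 and Psmc1 that rose there. Psmd1 was also taken but is not printed, since most of its window is exonic. Psmd13 and Psmd5, named there as well, had a window but none of the motifs. Psmd8, the member that stands apart in immune-like cells below, was added. The bases are those before the annotated start, with exonic bases left out, from RefSeq on GRCm38.p6, and capitals mark a motif found by its letters on either strand. In Psmb5 and Psmb6 the capitals mark the antioxidant response element TGACNNNGC, which Nfe2l1 and Nfe2l2 bind, in Psmc4 an E2F site TTTCCCGC, and in Psmc1 a CCAAT box. None of the searched motifs was found in Psmd8. The windows are chr14:54618023-54618245 (minus strand) for Psmb5, chr11:70525107-70525356 (plus) for Psmb6, chr7:28050102-28050342 (minus) for Psmc4, chr12:100109952-100110153 (plus) for Psmc1 and chr7:29180702-29180923 (minus) for Psmd8.
Psmb5: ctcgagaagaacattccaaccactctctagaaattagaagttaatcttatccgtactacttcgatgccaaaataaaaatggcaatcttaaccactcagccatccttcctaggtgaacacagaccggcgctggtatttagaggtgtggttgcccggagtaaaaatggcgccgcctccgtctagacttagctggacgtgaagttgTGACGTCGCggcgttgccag
Psmb6: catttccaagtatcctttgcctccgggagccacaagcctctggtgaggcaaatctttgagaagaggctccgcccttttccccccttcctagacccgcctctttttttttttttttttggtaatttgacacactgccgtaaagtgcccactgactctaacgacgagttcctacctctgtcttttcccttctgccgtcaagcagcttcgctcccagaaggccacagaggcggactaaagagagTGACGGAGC
Psmc4: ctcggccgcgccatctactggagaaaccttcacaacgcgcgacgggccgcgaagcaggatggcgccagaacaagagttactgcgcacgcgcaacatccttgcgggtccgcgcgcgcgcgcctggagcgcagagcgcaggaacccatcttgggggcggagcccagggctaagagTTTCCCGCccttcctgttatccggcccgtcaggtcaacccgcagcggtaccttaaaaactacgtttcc
Psmc1: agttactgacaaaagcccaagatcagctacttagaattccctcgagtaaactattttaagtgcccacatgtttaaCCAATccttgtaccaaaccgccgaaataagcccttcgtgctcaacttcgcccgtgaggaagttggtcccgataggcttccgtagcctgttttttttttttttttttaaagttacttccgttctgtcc
Psmd8: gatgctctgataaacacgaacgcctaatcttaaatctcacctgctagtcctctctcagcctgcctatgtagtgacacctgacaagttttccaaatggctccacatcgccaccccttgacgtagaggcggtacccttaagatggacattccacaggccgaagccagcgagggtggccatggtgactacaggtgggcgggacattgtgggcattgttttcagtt

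Of the 36 members, 29 had a window of 250 bases before the start. Of the Psmd1 window 232 bases lie in an annotated exon. TGACNNNGC was found in 5 of these 29 (17.2%), namely Psmb5, Psmb6, Psmc6, Psmd9 and Psmd12, and in 11.5% of the 27025 genes with a window. CCAAT was found in 12 members (41.4%) and 37.5% of genes, TTTGAA, the letters of the cell cycle homology region, in 2 (6.9%), 1 of them Psmd1, and 18.3%, TTTCCCGC in Psmc4 alone (3.45%) and 1.03%, and TTTGGCGC, another E2F form, in 0 and 0.485%. The motif of NRF1, here nuclear respiratory factor 1 and not Nfe2l1, was found in Psma2 alone (3.45%) and in 0.877% of genes. Its letters differ from TGACNNNGC. Both strands were searched, and no motif contains the letters of another. Of the 21 members with a window that rose in G2/M, 3 held TGACNNNGC, and of the 8 that did not, 2 did. These matches are descriptions of letters and not of binding.

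Among the non-cycling tumour states the members differed little. The study sets progenitors against committed neurons, and there 4 members were lower in neuronal-like cells and 0 higher, where 9.74% of all genes were called lower and 9.74% higher, so that the share of members called was near the background. Psma5 held 149.9, 131.5 and 153.3 UPM in progenitor-like cells of tumours 1, 2 and 3 and 135.4, 110.5 and 127.6 in neuronal-like cells, a difference of −0.40 ± 0.11 (log2, SE; edgeR adjusted p = 0.0106). Psma2, another alpha subunit, fell by 0.33 ± 0.096 (edgeR adjusted p = 0.0175), Psmd14 by 0.38 ± 0.13 (edgeR adjusted p = 0.0463) and the lid subunit Psmd3 by 0.43 ± 0.15 (edgeR adjusted p = 0.0478). With total UMIs in place of TMM factors (trimmed means of M values, which scale libraries by the bulk of their genes) none of the 4 passed, with edgeR adjusted p of 0.21 to 0.374, and the median over the members went from −0.147 to 0.039, with the median of all genes going from −0.0714 to 0.112. Psmb5, Psmb6 and Psmb7 differed by −0.13, −0.07 and −0.09 (log2) and did not pass, and all 3 turned positive with total UMIs. Psmd4 differed by −0.14. Counted at an unadjusted p under 0.05 were 6 members, and DESeq2 called 1 lower and 0 higher. With any 1 of the 3 tumours left out, 0 members were called by edgeR, with 2, 2 and 3 at an unadjusted p under 0.05 without tumours 1, 2 and 3.

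Stem-like cells had 0 members called in either direction, where 6.21% of all genes were called higher and 3.2% lower. At an unadjusted p under 0.05 there were 3, and DESeq2 called 1 lower. The median difference was −0.0946 (log2) with 29 of 36 negative. Psmb5 differed by −0.06 ± 0.12, Psmb6 by 0.01 and Psmb7, at 108, 89 and 118.6 against 131.7, 121.6 and 133.9 UPM in progenitor-like cells, by −0.24 (edgeR adjusted p = 0.281). Psmd14 and Psmd4 differed by −0.23 and −0.14, and none of these passed.

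In mesenchymal-like cells 2 members were lower and 0 higher, where 8.63% of all genes were lower and 12.9% higher. Psmd14 held 80.5, 90 and 58.4 UPM against 108.4, 115.8 and 104.4 in progenitor-like cells. The groups did not overlap, and the difference was −0.48 ± 0.13 (log2, SE; edgeR adjusted p = 0.0113). Psmd5 held 38.2, 40.3 and 41.2 against 55.9, 52.5 and 48.4, again without overlap, and fell by 0.42 ± 0.15 (edgeR adjusted p = 0.0416). Psmb5 at −0.20, Psmb6 at −0.13, Psmb7 at −0.32 (edgeR adjusted p = 0.11) and Psmd4 at −0.09 did not pass. The median difference was −0.161 with 30 of 36 negative, 8 members had an unadjusted p under 0.05, and DESeq2 called 2 lower. Leaving out tumour 1 or tumour 3 left 0 calls. Tumour 3 gave only 31 mesenchymal-like and 42 neuronal-like cells, and summed stress genes were 5822 to 8307 UPM in stem-like and mesenchymal-like cells, 3219 to 4573 in progenitor-like and 1538 to 2365 in neuronal-like cells. Their part in these differences was not tested.

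**Figure D3:**
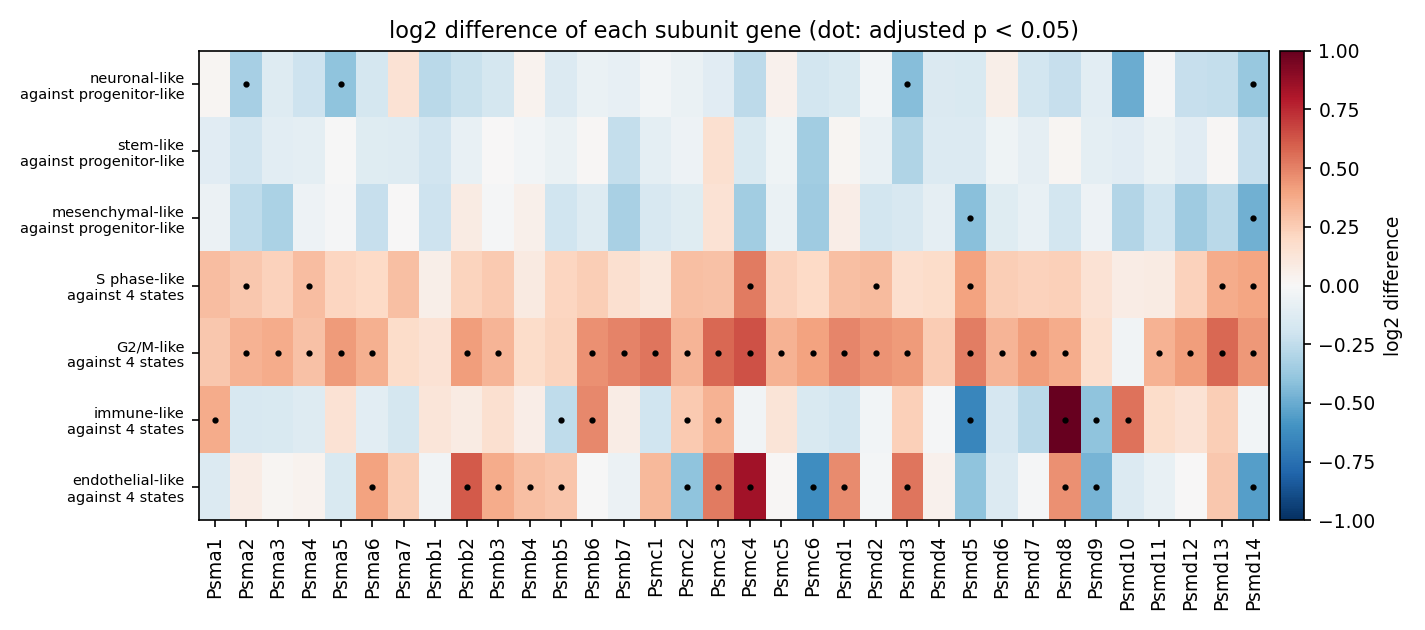
Difference of each proteasome subunit gene (columns, without Psma8 and Psmb11) in each of the 7 comparisons (rows) as a colour from −1 to 1 on the log2 scale, with a dot for a called member. The G2/M row holds 26 called members, all higher, and the stem-like row none.

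Immune-like cells of the same tumours served as a background of non-tumour cells. Smarcb1 UMIs were read in this class, though the gates were set with them in view. On TMM factors 7 members, among them Psma8, were higher and 3 lower than in the 4 tumour states, where 31.8% of all genes were higher and 32.2% lower, and the median difference was 0.0249 (log2) with 18 members positive and 18 negative. With total UMIs alone 2, Psmd8 and Psma8, were higher and 30 lower, where 19.9% and 52.6% of all genes were, and the median went to −0.592. The scaling moved the median of all genes from −0.119 to −0.727, and the TMM factors of the immune-like sums were 0.633 to 0.774. The lower summed level of immune-like cells is on total UMIs, and the members' median lay slightly above the median of all genes on either scale. Without tumour 3 the counts on TMM factors were 4 higher and 12 lower, where 29.0% and 35.7% of all genes were. The G2/M markers summed to 267.7, 211.4 and 638.7 UPM in immune-like cells of tumours 1, 2 and 3 and to between 62.5 and 150.2 UPM in the states, and their part in the result was not tested.

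Psmd8 rose on both scales. This lid subunit held 111.9, 129.1 and 148.1 UPM in immune-like cells of tumours 1, 2 and 3 and 106.5, 89.4 and 103.9 in the states, so that the groups did not overlap. Its difference was 1.02 ± 0.12 (log2, SE; edgeR adjusted p = 1.54e-07) on TMM factors and 0.41 ± 0.12 (edgeR adjusted p = 0.00498) on total UMIs.

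Psmd5 fell on both scales. It held 16.9, 21.2 and 19.9 UPM against 50.2, 50.6 and 42.7 in the states, far apart in every tumour, with a difference of −0.65 ± 0.12 (log2, SE; edgeR adjusted p = 6.96e-05) on TMM factors and −1.28 on total UMIs. The base chaperone Psmd9 fell by 0.40 ± 0.14 (edgeR adjusted p = 0.0132). The third, Psmd10, was higher by 0.54 ± 0.13 (edgeR adjusted p = 0.00133) on TMM factors but held 24.1, 28.1 and 30.0 UPM against 33.5, 26.0 and 29.3, and its difference turned to −0.08 on total UMIs.

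Of the catalytic subunits in immune-like cells, Psmb5 was lower, at 93.8, 80.0 and 108.4 UPM against 177.5, 165.8 and 180.7, by −0.25 ± 0.10 (log2, SE; edgeR adjusted p = 0.0325) on TMM factors and −0.87 on total UMIs. Psmb6 was higher by 0.48 ± 0.10 on TMM factors (edgeR adjusted p = 0.000345), but at 171.5, 164.7 and 172 UPM its difference turned to −0.14 on total UMIs. Psmb7 differed by 0.07 (edgeR adjusted p = 0.593) and −0.54. The alpha subunit Psma1 was higher by 0.37 ± 0.11 (edgeR adjusted p = 0.00622) on TMM factors and differed by −0.24 on total UMIs. The ATPase genes Psmc2 and Psmc3 were higher by 0.26 (edgeR adjusted p = 0.0425) and 0.35 (edgeR adjusted p = 0.00507) on TMM factors and lower by −0.35 and −0.26 on total UMIs. Psmd4 and Psmd14 differed by −0.01 and −0.03 on TMM factors, did not pass there and passed as lower at −0.63 and −0.64 on total UMIs. The directions of Psmb6, Psmb7, Psma1, Psmc2, Psmc3 and Psmd10 thus turned with the scaling, and those of Psmd8, Psmd5, Psmd9 and Psmb5 did not.

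**Figure D4:**
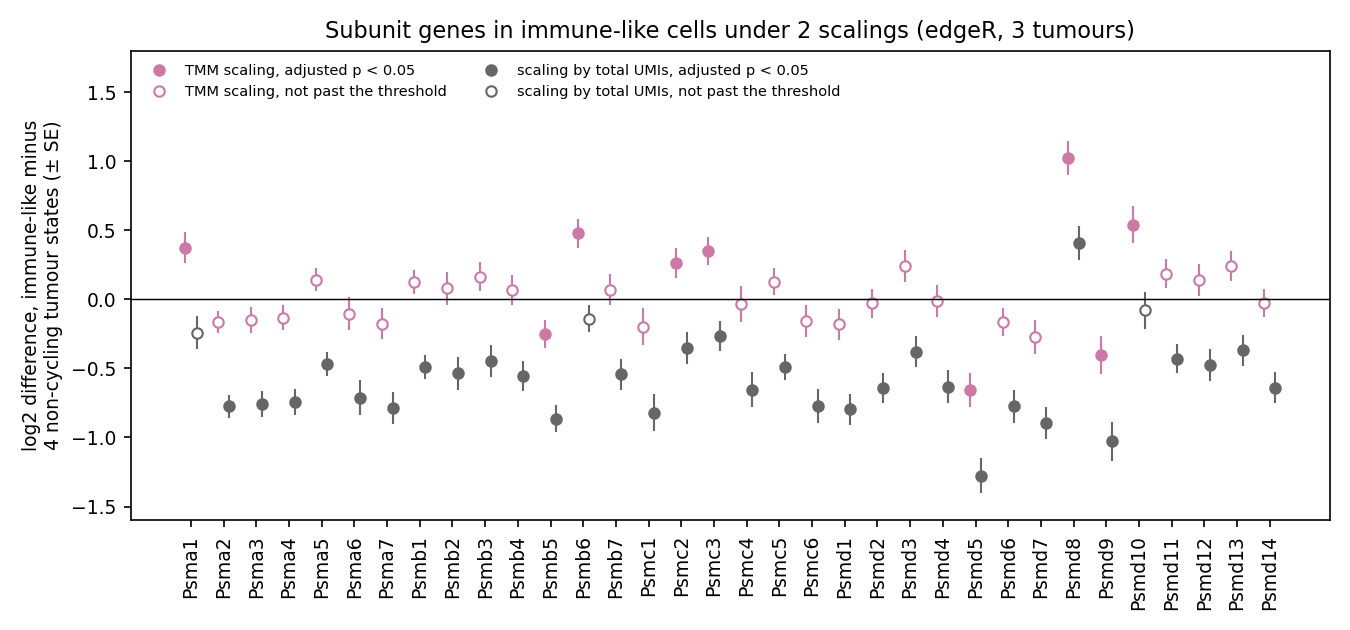
Difference of each proteasome subunit gene in immune-like cells against the 4 tumour states (log2, axis y; genes on axis x without Psma8 and Psmb11), on TMM factors and on total UMIs, with bars for the standard error and filled points for called members. On total UMIs 30 of 36 members are called lower, and Psmd8 is higher on both scales.

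The immunoproteasome genes, which replace the catalytic subunits in cells of the immune system and after interferon, are no members but are the partners of Psmb5, Psmb6 and Psmb7. Psmb8 UMIs were 65.8, 58.2 and 67.2% of the Psmb8 and Psmb5 UMIs in immune-like cells of tumours 1, 2 and 3 (95% exact binomial intervals 63.1 to 68.3, 54.4 to 62.0 and 63.5 to 70.8, which cover counting error only). In endothelial-like cells the share was 18.9, 11.5 and 22.3%, in mesenchymal-like cells 3.67, 1.37 and 4.35%, and in progenitor-like cells 0.352, 1.11 and 0.0585%. The immune-like share was the highest of these in each tumour and far outside the intervals of the tumour states.

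Psmb9 took 23.8, 13.7 and 27.6% of the UMIs it shared with Psmb6 in immune-like cells and 3.62, 8.70 and 14.5% in endothelial-like cells. Psmb10 took 46.1, 41.4 and 43.7% of those shared with Psmb7 in immune-like cells, 34.2, 42.5 and 35.8% in endothelial-like cells, 10.6, 11.1 and 12.0% in progenitor-like cells and 5.95, 8.20 and 5.95% in G2/M-like cells. Unlike Psmb8 and Psmb9, Psmb10 was therefore read in tumour cells at a sizeable share.

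All 3 passed the test in immune-like cells, with differences of 7.37 ± 0.26 for Psmb8 (log2, SE; edgeR adjusted p = 4.42e-17), 5.37 ± 0.38 for Psmb9 (edgeR adjusted p = 2.24e-11) and 2.22 ± 0.14 for Psmb10 (edgeR adjusted p = 3.45e-12), and in endothelial-like cells, with 4.99, 3.59 and 1.67. In mesenchymal-like against progenitor-like cells Psmb8 rose by 3.14 ± 0.74 (edgeR adjusted p = 0.00391) and Psmb9 by 2.97 ± 0.90 (edgeR adjusted p = 0.0212), on few UMIs. Psmb8 had 19, 4 and 4 UMIs in mesenchymal-like cells of the 3 tumours against 5, 4 and 1 in progenitor-like cells, so that tumour 2 had 4 in both. Psmb9 had 9, 13 and 1 against 5, 3 and 1 in progenitor-like cells. The summed level of the 10 immune markers was 47.0, 93.1 and 27.5 UPM in mesenchymal-like, 41.6, 96.9 and 27.8 in progenitor-like and 30950, 27400 and 30420 in immune-like cells, and so was alike in the former pair. Other marker lists were higher in mesenchymal-like than in progenitor-like cells of each tumour. The endothelial markers summed to 22.0, 27.7 and 34.3 against 7.77, 13.0 and 10.3 UPM, and the mural markers to 25.03, 17.3 and 10.3 against 3.95, 2.24 and 6.32 UPM. The OPC markers summed to 86.9, 84.2 and 72.1 against 15.5, 13.5 and 5.58 UPM, and the astro-glial markers to 259.4, 255.8 and 370.8 against 76.4, 118.5 and 49.6 UPM. The part of these cell types in the result was not tested. Psmb10 fell in G2/M-like cells by 0.87 ± 0.18 (edgeR adjusted p = 0.000753), against the direction of the catalytic members there.

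**Figure D5:**
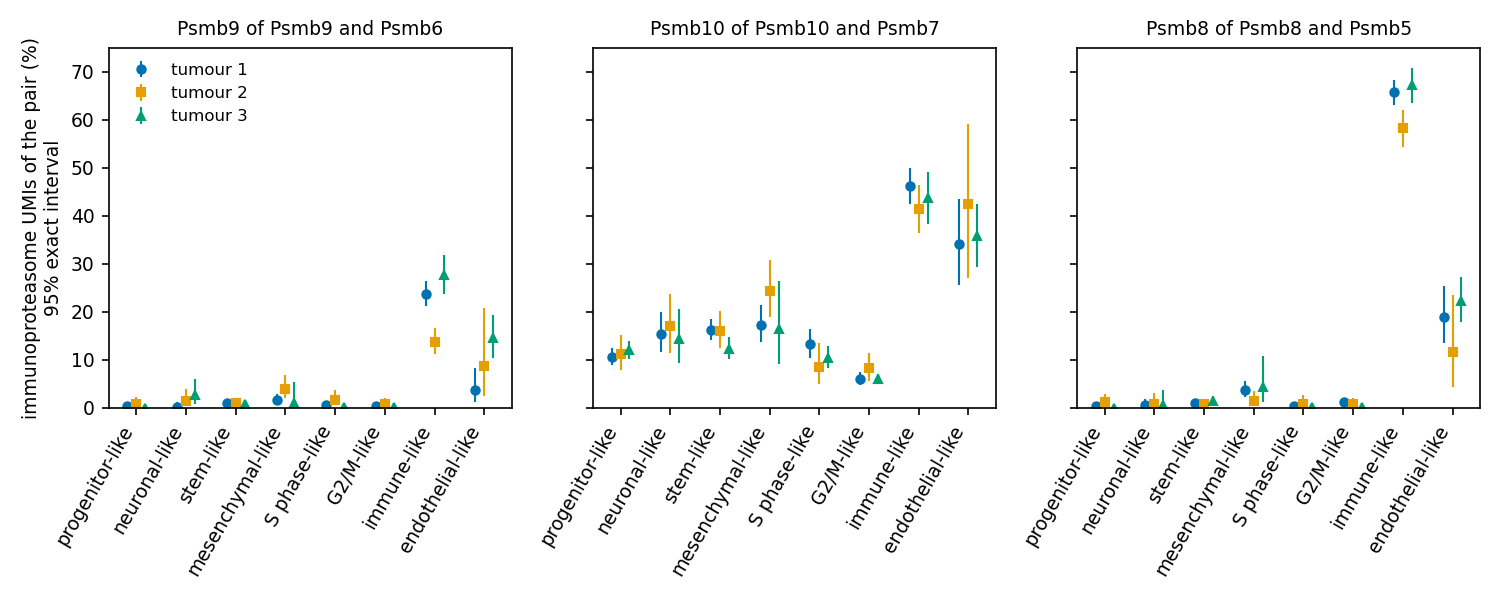
Share (%) of UMIs of each immunoproteasome gene in the sum of that gene and its constitutive partner, by cell class, with 1 point for each of the 3 tumours and bars for the 95% exact binomial interval. The Psmb8 share is 58.2 to 67.2% in immune-like cells and at most 4.35% in mesenchymal-like cells.

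In endothelial-like cells 11 members, among them Psma8, which passed the filter only through non-tumour sums, were higher and 4 lower than in the 4 tumour states, where 23.2% of all genes were higher and 27.5% lower. The members were split, with a median difference of 0.0287 (log2) and 21 of 36 positive. With total UMIs 6 were higher and 6 lower, where 20.6% and 33.3% of all genes were, and the median of all genes went from −0.275 to −0.438.

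The ATPase ring moved both ways in endothelial-like cells. Psmc4 held 97.7, 82.8 and 159.3 UPM against 74.4, 69.4 and 77.5 in the states, a rise of 0.84 ± 0.14 (log2, SE; edgeR adjusted p = 2.83e-05), and Psmc3 178.1, 168.8 and 182.9 against 159.8, 154.1 and 117.3, a rise of 0.52 ± 0.11 (edgeR adjusted p = 0.000496). Psmc6 held 90.3, 73.2 and 105.9 against 168.6, 150 and 163.7, a fall of 0.62 ± 0.14 (edgeR adjusted p = 0.000719), and Psmc2 fell by 0.40 ± 0.14 (edgeR adjusted p = 0.0229). For Psmc4, Psmc3 and Psmc6 the groups did not overlap in any tumour.

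Of the other endothelial-like differences, the beta subunit Psmb2 rose by 0.62 ± 0.13 (log2, SE; edgeR adjusted p = 0.000303), at 199.1, 165.6 and 259.8 UPM against 160.5, 150.7 and 159.7. Psmd3 rose by 0.53 ± 0.14 (edgeR adjusted p = 0.00218). Psmd14 held 54.4, 54.1 and 57.0 against 98.9, 96.4 and 82.8 and fell by 0.55 ± 0.13 (edgeR adjusted p = 0.00132). Psmb5 passed at 0.27 (edgeR adjusted p = 0.0348) but was higher in only 2 of 3 tumours, while Psmb6 at −0.00, Psmb7 at −0.06 and Psmd4 at 0.05 did not pass. Tumour 3 stood apart here, since 29 of the 34 regularly read members were positive in it against 14 and 11 in tumours 1 and 2. Stress genes induced by dissociation summed to 8459, 10100 and 5112 UPM in endothelial-like cells of tumours 1, 2 and 3, and haemoglobin genes to 289.3, 458.6 and 0 UPM, so that tumour 3 was lowest in both. Its endothelial-like cells also held 456.2 UPM of G2/M markers, beside 233.7 in tumour 1 and 57.3 in tumour 2. Without tumour 3 the counts were 3 higher and 7 lower, where 19.6% and 23.4% of all genes were. The classes rest on 84, 37 and 54 cells, and the part of the markers, stress and haemoglobin genes in the result was not tested.

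Outside the members, the genes that build the complex moved with it in cycling cells. Of 5 assembly factors read, 4 rose in G2/M-like and 4 in S phase-like cells and 0 fell in either. Of all genes tested, 16.2% were called higher and 9.15% lower in G2/M-like cells, and 10.3% and 4.24% in S phase-like cells. Psmg2, part of the chaperone pair that starts the alpha ring, held 47.0, 43.7 and 30.4 UPM in the states and 73.71, 75.02 and 50.78 in G2/M-like cells, a rise of 0.81 ± 0.12 (log2, SE; edgeR adjusted p = 1.38e-05). Psmg4 rose by 0.67 in S phase-like cells and fell by 1.12 in neuronal-like cells. Pomp, the maturation factor of the beta ring, was higher by 1.09 ± 0.081 (edgeR adjusted p = 4.14e-11) in immune-like cells, at 359.8, 272 and 281.5 against 246.3, 219.2 and 207.6, and by 1.504 ± 0.083 (edgeR adjusted p = 4.23e-13) in endothelial-like cells, at 583.6, 519.1 and 581.2. Pomp was thus above the states in both non-tumour classes on both scales.

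Of 4 further subunits and bound deubiquitinases, 2 rose in G2/M-like cells, where 16.2% of all genes were called higher. Uchl5, a deubiquitinase of the regulatory particle, held 17.5, 16.8 and 12.4 UPM in the states, 34.8, 33.5 and 32.8 in S phase-like and 54.6, 55.5 and 41.5 in G2/M-like cells. Its rise of 1.77 ± 0.14 (log2, SE; edgeR adjusted p = 4.07e-10) in G2/M was above that of every member that was called there. Usp14, the other deubiquitinase, rose by 0.31.

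Of 5 activators and inhibitors, 1 rose and 1 fell in G2/M-like cells, where 16.2% of all genes were called higher and 9.15% lower. Psme3, the nuclear activator, rose by 0.49, and Psme1, a subunit of the interferon-induced activator, fell by 0.72 ± 0.16 (log2, SE; edgeR adjusted p = 0.00131). In immune-like cells Psme1 rose by 2.20 ± 0.13 (edgeR adjusted p = 7.95e-13) and Psme2, its partner, by 1.36. There 3 of the 5 rose and 0 fell, where 31.8% of all genes were called higher and 32.2% lower. Psme1 and Psmb10, which interferon is known to induce, so fell in G2/M where the called members rose. Psmb8 at −0.42 and Psmb9 at −1.02 (log2) did not pass there, on few UMIs.

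Among the regulators of proteasome genes, Nfe2l1 held 133.9, 132.8 and 128.3 UPM in the states and 122.7, 127.5 and 114.7 in G2/M-like cells, a difference of 0.00 ± 0.089 (log2, SE; edgeR adjusted p = 1). Its transcript was not called where the members rose, and the activity of the protein, which is set after translation, is not read here. Nfe2l2, the regulator of the oxidative stress response, rose by 4.77 in immune-like and 1.92 in endothelial-like cells. Of the 7 regulators, 1 rose and 1 fell in G2/M-like cells, where 16.2% of all genes were called higher and 9.15% lower. In immune-like cells 4 rose and 1 fell, where 31.8% of all genes were called higher and 32.2% lower.

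The shuttle factors, which carry ubiquitin-marked proteins to the proteasome, had 3 of 6 higher and 0 lower in G2/M-like cells. Of p97, the unfoldase upstream of the proteasome, and its cofactors, 3 of 6 rose and 0 fell, led by Faf1 at 0.66 (log2). Of 6 ubiquitin and E1 genes 0 were called in G2/M-like cells by edgeR. In that comparison 16.2% of all genes were called higher and 9.15% lower.

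Other complexes of many subunits served for comparison. Of the 8 chaperonin CCT genes listed 7 were matched, and of these 6 rose and 0 fell in G2/M-like cells, where 16.2% of all genes were called higher. Their median was 0.406 (log2), close to that of the proteasome members. In S phase-like cells 5 rose, where 10.3% of all genes were called higher. Of 8 genes of the V1 part of the V-ATPase, 0 rose and 2 fell in G2/M-like cells, with a median of −0.277, where 9.15% of all genes were called lower. In immune-like cells 7 rose, where 31.8% of all genes were called higher. In neuronal-like cells 6 of 7 CCT genes fell, with a median of −0.425, against 4 of 36 proteasome members, where 9.74% of all genes were called lower. Called genes in G2/M were thus higher in CCT and lower in the V-ATPase. Both lists were chosen with earlier results of these data known, and no test was made between the complexes. Summed CCT levels were 1764, 1584 and 2024 UPM in G2/M-like cells of tumours 1, 2 and 3, and 1701, 1542 and 1971 in progenitor-like cells. The proteasome members summed to 6233, 5685 and 5161 UPM beside 5257, 4902 and 4918, and the V-ATPase genes to 889.1, 884.7 and 833.9 beside 1136, 1049 and 1040.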

How the data were processed

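The authors deposited UMI counts per gene and barcode, made with Cell Ranger 3.1.0 on mm10, and no normalization had been applied to these counts. Per tumour, barcodes under the 5th percentile of genes, or over the median mitochondrial share plus 3 scaled median absolute deviations (at most 20%), were removed, and cells under 3000 UMIs were left out. Scrublet (scanpy 1.11.5) at its own threshold marked 0, 0 and 1 cells. In its place a rate of 0.8% per 1000 cells scored was set (7.63, 6.05 and 4.00% of 9543, 7560 and 5006 cells), and cells scoring higher than the matching quantile were removed, which were 695, 380 and 127, since ties with it stayed. The study's own removal of non-tumour cells was not applied. Cells were gated by 12 marker lists at thresholds set after marker and Smarcb1 UMIs were seen and before member values were. Counts of a class with at least 20 cells in a tumour were summed, and 1 fit of 29 sums with class and tumour (edgeR 4.0.16 in R 4.3.3, quasi-likelihood, TMM, filterByExpr) tested 15489 genes, with the 107 gate genes left out. DESeq2 1.42.0 was an alternative. The code was tested on simulated data. Positions are from GENCODE on GRCm38. Columns of no sample numbered 0.

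The members and lists were chosen with earlier results of these data known. Named were the catalytic subunits, Psmd4, Psmd14, Psma8, Psmb11 and the immunoproteasome genes throughout, up to 6 further members a comparison that passed in 1 direction in all tumours, by size, and up to 3 genes of each of the 18 lists. Some genes that this rule takes in are not reported here. Shares have 95% exact binomial intervals. Alternatives were other scalings, no filter, no tumour term, a minimum of 5000 UMIs, mitochondrial and ribosomal genes left out, doublets kept, a stricter gate, each tumour left out and, chosen after seeing the data, a maximum of 15000 UMIs.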

Additional observations from a re-analysis of the deposited data

How the results depend on the processing

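Each comparison was paired by tumour, and the fit with no tumour term is the unpaired alternative. Of the counts and summed levels recomputed under alternatives, 117 stayed within their limits and 64 moved, and of the 63 member differences recomputed (those named by the rule, without Psma8 and Psmb11, and Psmc2 and Psmc3 in both non-tumour classes) 629 values kept their call, 135 lost it, 2 gained one and 53 turned. The cause of these moves was not tested. Counts of members called, by setting, were as follows. For neuronal-like lower (4) they were 0 with RLE factors, with total UMIs, with no tumour term, with a stricter gate and with a maximum of 15000 UMIs, 1 with DESeq2 and with no filter, 2 with a minimum of 5000 UMIs, and 0 to 0 with a tumour left out. For stem-like (0) they were 1 with DESeq2, the stricter gate and the maximum depth. For mesenchymal-like lower (2) they were 1 with RLE and no filter, 0 with no tumour term, 4 with the stricter gate and 0 to 1 with a tumour left out. For S phase-like higher (7) they were 3 with RLE, total UMIs and the maximum depth, 2 with no filter, 1 with no tumour term, 11 with the stricter gate and 0 to 5 with a tumour left out. For G2/M-like higher (26) they were 16 with RLE, 11 with no tumour term, 12 with the maximum depth and 1 to 25 with a tumour left out. For immune-like higher (7) they were 2 with total UMIs, 4 with no tumour term, 12 with the stricter gate and the maximum depth and 4 to 9 with a tumour left out, and for immune-like lower (3) they were 5 with RLE, 30 with total UMIs, 8 with DESeq2, 6 with 5000 UMIs, 1 with the stricter gate and the maximum depth and 1 to 12 with a tumour left out. For endothelial-like higher (11) they were 6 with total UMIs, 7 with no tumour term and the maximum depth and 3 to 12 with a tumour left out, and for endothelial-like lower (4) they were 2 with RLE and DESeq2 and 1 to 7 with a tumour left out. With mitochondrial and ribosomal genes left out of the total, the summed level was 6809 UPM in progenitor-like, 6510 in neuronal-like, 6025 in stem-like, 5977 in mesenchymal-like, 7326 in S phase-like, 7356 in G2/M-like, 4124 in immune-like and 5689 in endothelial-like cells.

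Differences (log2) that turned were those of members that had not passed, or of immune-like calls on TMM factors. In neuronal-like cells Psmb5 went to 0.014 with RLE, 0.0517 with total UMIs, 0.00432 with DESeq2 and 0.00743 with the stricter gate (tumour left out, −0.178 to 0.013), Psmb6 to 0.079, 0.116 and 0.0611 with RLE, total UMIs and DESeq2 (−0.0956 to 0.0536), and Psmb7 to 0.0627, 0.0981 and 0.0525 with the same and 0.0372 with the stricter gate (−0.253 to 0.0735), and Psmd4 to 0.0041, 0.0411 and 0.00289 with RLE, total UMIs and DESeq2 (−0.192 to 0.0244). In mesenchymal-like cells Psmd4 went to 0.0183 with RLE and 0.0113 with DESeq2 (−0.153 to 0.0655). In stem-like cells Psmb6 went to −0.0394 with total UMIs and −0.0801 with the stricter gate (−0.0921 to 0.088), and Psmb5 ran from −0.212 to 0.0869 with a tumour left out. In immune-like cells with total UMIs Psmb6 went to −0.139, Psmb7 to −0.544 (−0.0218 to 0.152 with a tumour left out), Psmd10 to −0.0803, Psma1 to −0.242, Psmc2 to −0.353 and Psmc3 to −0.263, while Psmd4 and Psmd14 passed as lower at −0.631 and −0.639. Psmd4 turned to 0.0819 with the stricter gate and 0.195 with the maximum depth (−0.155 to 0.0968), and Psmd14 to 0.04 with the stricter gate (−0.24 to 0.112). In endothelial-like cells Psmb6 went to 0.118 with RLE, 0.146 with DESeq2, 0.0226 with 5000 UMIs, 0.0219 with doublets kept and 0.0836 with the stricter gate (−0.225 to 0.162), and Psmb7 to 0.0588 with RLE, 0.0856 with DESeq2 and 0.0624 with the maximum depth (−0.255 to 0.087), while Psmd4 went to −0.121 with total UMIs and −0.00478 with no tumour term (−0.28 to 0.208). Depth limits Psma8 and Psmb11, which had at most 15 UMIs in a class sum named here.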

Other observations

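MHC class I presentation genes, which load the peptides that proteasomes make, had 6 of 6 higher in mesenchymal-like, immune-like and endothelial-like cells each and 2 of 6 higher in stem-like cells, with medians of 1.4, 4.53, 2.83 and 0.861 on the log2 scale. Of all genes, 12.9, 31.8, 23.2 and 6.21% were called higher in the same order of classes. The endothelial, mural, OPC and astro-glial marker lists were also higher in mesenchymal-like than in progenitor-like cells of each tumour, and their part in the presentation genes' rise was not tested. In G2/M-like cells 2 of the 6 fell and 0 rose (edgeR), with a median of −0.54, where 9.15% of all genes were called lower. Dissociation and heat stress genes had 10 of 10 higher in mesenchymal-like and 6 of 10 higher in stem-like cells than in progenitor-like cells, and 6 of 10 lower in neuronal-like cells. Of all genes, 12.9% were called higher in mesenchymal-like and 6.21% in stem-like cells, and 9.74% lower in neuronal-like cells. Haemoglobin genes summed to 3.71, 535.7 and 0.319 UPM in stem-like and 7.13, 25.6 and 0 UPM in progenitor-like cells of tumours 1, 2 and 3, so that of these 2 classes only stem-like cells of tumour 2 were high. They were also high in tumour cells of no state in tumours 1 and 2, at 388 and 2133 UPM.

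Across the 24 class sums of the 8 classes, each member's log2 level was correlated with the log2 sum of the other members, as a description over sums that share libraries and depth. The median Pearson r over the 34 regularly read members was 0.786, and 28 of them lay above 0.7. No such value over all genes stands beside these, so a pattern common to most genes cannot be told apart here. On total UMIs 52.6% of all genes were called lower in immune-like cells. Psma3 was highest at 0.967, while Psmd8 at 0.00901 and Psmd10 at 0.197 were lowest.

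Of the 36 members, 6 (16.7%) start within 1000 bases of a gene on the other strand that is read away from them, against 6.77% of 22028 protein-coding genes. These pairs are Psma2 with Mrpl32, Psma7 with Ss18l1, Psmb1 with Tbp, Psmc2 with Dnajc2, Psmc5 with Ftsj3 and Psmd10 with Atg4a.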
